A study of Caenorhabditis elegans with 9 samples.

Results

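The binding of the Hox protein EGL-5 to chromosome V of Caenorhabditis elegans is described here through the 703 peaks that the authors' combined list places on that chromosome, of 4688 in all. The members were chosen by chromosome alone, so neither their q values nor their overlap with other lists decided which were included. The data come from chromatin immunoprecipitation followed by sequencing (ChIP-seq), in which DNA bound by a protein is pulled down with an antibody and read. The worms were hermaphrodites of strain OP54 at the L3 larval stage, grown at 20 °C. They carry the mutation unc-119(ed3) on chromosome III and the integrated transgene wgIs54, which supplies unc-119(+) and an egl-5 gene fused to TY1, EGFP and 3xFLAG tags. Both replicates, ChIP and input alike, share this genotype, and no strain without the tagged protein is among the libraries. The 9 libraries are 2 ChIP libraries of replicate 1, 2 of replicate 2 and 5 of input DNA, which is sheared chromatin that met no antibody. The input libraries are all titled replicate 2. The peaks are known as lists, 1 per replicate and 1 called combined, and not per library. No read counts come with the lists, so how deeply each library was sequenced is unknown. Nothing says how separately the worms of the replicates were raised, so differences between the lists may be technical. Positions are those of the files, on the WormBase WS190 build.

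EGL-5 is the Abdominal-B class Hox protein of the worm, a homeodomain transcription factor that gives posterior cells their identity, among them cells of the rectal epithelium, a posterior epidermal lineage and, in males, sensory rays of the tail. Whole larvae were used, and EGL-5 is made in few of their cells, so a peak pools whatever sites those cells use. Chromosome V is an autosome with gene-rich central sequence and repeat-rich arms, and it is known for large families of chemoreceptor genes. No gene is assigned to a peak here, because no annotation of the WS190 build was used. No sequence is shown for the same reason.

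Peaks lay unevenly along chromosome V, with most of them between 5 and 15 Mb and a long poor stretch further right. In the 20 full bins of 1 Mb, the combined list held a median of 28.5 peaks per bin, with a range from 11 to 65. The densest bin, from 11 to 12 Mb, held 65 peaks (95% Poisson interval 50.2 to 82.9), which was 1.94 times the mean of the full bins. The next were the bins from 10 to 11 Mb and from 14 to 15 Mb with 61 peaks each (46.7 to 78.4). The sparsest bins were those from 17 to 18 Mb with 11 peaks (5.49 to 19.7), from 2 to 3 Mb with 12 (6.20 to 21.0) and from 16 to 17 Mb with 13 (6.92 to 22.2). The intervals of these 3 bins did not reach those of the 3 densest. Such intervals cover counting error alone and treat peaks as independent, which neighbouring peaks may not be. They also make no allowance for these bins having been picked as the extremes of the same counts.

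**Figure D1:**
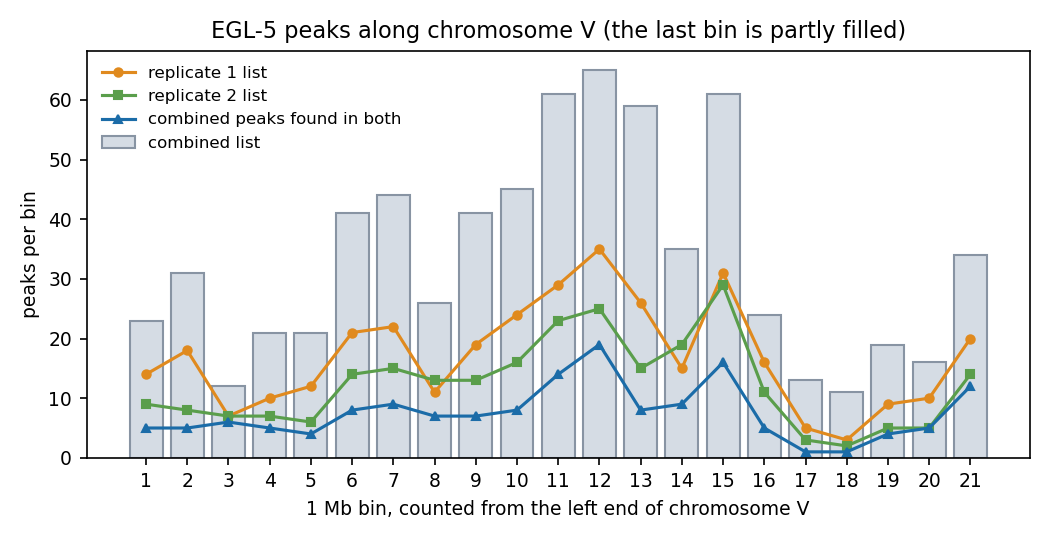
Number of EGL-5 peaks (vertical axis) in each 1 Mb bin of chromosome V, numbered from its left end (horizontal axis), with bars for the combined list and lines for the replicate 1 list, the replicate 2 list and the combined peaks found in both. Counts in all 4 series peak in bin 12 or bin 15 and are lowest, or tied for lowest, in bin 18, where the combined list has 11 peaks.

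A similar relief was present in each replicate list. Replicate 1 ranged from 3 to 35 peaks per full bin with a median of 15.5, and replicate 2 from 2 to 29 with a median of 12. In the densest combined bin, from 11 to 12 Mb, replicate 1 had 35 peaks and replicate 2 had 25. Replicate 2 was instead densest from 14 to 15 Mb, with 29 peaks. From 12 to 13 Mb it had 15, where replicate 1 had 26 and the combined list 59. From 17 to 18 Mb replicate 1 had 3 and replicate 2 had 2. Replicate 1 had more peaks than replicate 2 in 17 of the 20 full bins, as many in 1 and fewer in 2, which lay from 7 to 8 Mb (11 against 13) and from 13 to 14 Mb (15 against 19). Across the 20 bins Spearman's rho of the replicates' counts was 0.91, given as a description of bins of 1 chromosome in 1 pair of lists.

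Some stretches were singled out after their counts were seen. From 5 to 15 Mb the combined list held 478 peaks, or 68.0% of the chromosome's peaks, at 47.8 per Mb. The replicate lists placed 65.3% and 70.3% of their own peaks there. From 16 to 20 Mb there were 59 peaks, at 14.8 per Mb, with 27 in replicate 1 and 15 in replicate 2. Beyond 20 Mb the density rose again, with 34 peaks in the last 0.916 Mb, or 37.1 per Mb. Of these 34, 12 were found in both replicates (35.3%, 95% Wilson interval 21.5 to 52.1), against 11 of the 59 from 16 to 20 Mb (18.6%, 10.7 to 30.4). The intervals of these shares overlap.

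The span from the outermost peak bases, 7625 to 20916134, was divided into 3 equal parts, termed left arm, centre and right arm, each of 6.97 Mb. The centre, from 6977128 to 13946630, held 331 peaks or 47.1% (95% Wilson interval 43.4 to 50.8), a density of 47.5 per Mb. The left arm held 193 peaks (27.5%, 24.3 to 30.9) and the right arm 179 (25.5%, 22.4 to 28.8), or 27.7 and 25.7 per Mb. Over all autosomes 43.5% of combined peaks were central. Set against the other 4 autosomes together, the odds of lying in the centre were 1.20 times higher (95% interval 1.01 to 1.42), which did not pass Fisher's exact test once adjusted (p = 0.0350, adjusted p = 0.0932 by the Benjamini-Hochberg method over 8 tests). With the centre widened to 50% of the span, it held 69.7% of the peaks and the odds ratio rose to 1.38 (1.15 to 1.65, Fisher's exact test, adjusted p = 0.00333). Whether this difference passed therefore depended on where the arms were taken to end. The ratio with a central 50% was not computed without chromosome I. With equal parts the odds ratio was 1.08 in replicate 1, 1.16 in replicate 2 and 1.09 among peaks found in both. It was 1.08 in the 50% of lowest q, 1.202 among peaks of 50 bp or more and 1.205 with neighbouring peaks counted once as a run. None of these passed Fisher's exact test once adjusted. Without chromosome I the odds ratio was 1.13 (0.946 to 1.35, adjusted p = 0.229 by Fisher's exact test). Among single autosomes, II had a higher central share than V, at 49.8%, and III had 43.5%, so a full centre was not particular to V. The arms did not differ detectably from each other, with a ratio of left to right counts of 1.08 (0.875 to 1.33, exact binomial test, adjusted p = 0.572). The right arm so taken included the dense bin from 14 to 15 Mb, with 61 peaks. With a central 50% the ratio was 1.27 (0.958 to 1.68, exact binomial test, adjusted p = 0.160). In replicate 1 the left arm, centre and right arm held 104, 158 and 95 peaks, and in replicate 2 they held 66, 124 and 69. The centre was the fullest part in each list.

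A combined peak was called found in a replicate when it shared at least 1 bp with a peak of that replicate's list. On chromosome V, 158 peaks were found in both replicates (22.5%, 95% Wilson interval 19.5 to 25.7), where 18.9% of all combined peaks were. A further 188 were found in replicate 1 only (26.7%, 23.6 to 30.1; 31.0% over all chromosomes) and 87 in replicate 2 only (12.4%, 10.1 to 15.0; 8.75% over all). The remaining 270 were found in neither (38.4%, 34.9 to 42.1), against 41.4% over all chromosomes. These 4 classes account for every member. A combined peak found in neither list is one that passed the caller's threshold only where the authors made the combined list, in a way not given in the sources used here.

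The odds that a chromosome V peak was found in both replicates were 1.30 times those on the other 5 chromosomes (95% interval 1.06 to 1.59, adjusted p = 0.0356 by Fisher's exact test). This difference rested on chromosome I, where only 10.9% of peaks were found in both. Against the other chromosomes without I, where the share was 21.0%, the odds ratio was 1.09 (0.890 to 1.34, Fisher's exact test, adjusted p = 0.510). Single chromosomes other than I and V had shares between 20.8%, on IV and X, and 21.3%, on II, all within the interval of V. It also no longer passed when neighbouring peaks were counted once as a run (1.31, 1.05 to 1.64, Fisher's exact test, adjusted p = 0.0702). Peaks found in neither were not detectably rarer on V (odds ratio 0.864, 0.730 to 1.02, Fisher's exact test, adjusted p = 0.177).

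**Figure D2:**
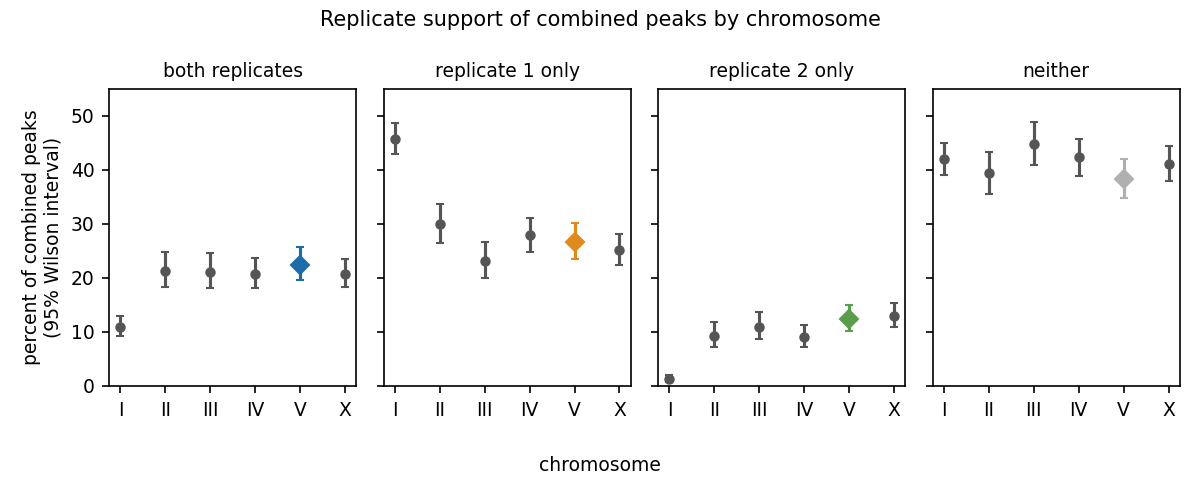
Percent of combined peaks (vertical axis, with 95% Wilson intervals) on each chromosome (horizontal axis) split by support (both lists, replicate 1 only, replicate 2 only, neither), with chromosome V as a diamond. In each panel the interval of V, at 22.5% in both, overlaps those of II, III, IV and X, and chromosome I stands apart in the first 3 panels.

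Support did not differ detectably between centre and arms of chromosome V. In the centre 72 of 331 peaks were found in both replicates (21.8%, 17.7 to 26.5), and in the arms 86 of 372 (23.1%, 19.1 to 27.7), an odds ratio of 0.925 (0.637 to 1.34, Fisher's exact test, adjusted p = 0.717). The interval is wide enough to allow a difference in either direction. In full bins the number found in both ran from 1, in each bin from 16 to 18 Mb, to 19 from 11 to 12 Mb, with a median of 6.5. The share found in both was highest from 2 to 3 Mb, at 6 of 12 peaks (50%, 25.4 to 74.6), and lowest from 16 to 17 Mb, at 1 of 13 (7.69%, 1.37 to 33.3), shares that overlap at these counts.

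Seen from the replicate lists, 158 of the 357 replicate 1 peaks on V overlapped a replicate 2 peak (44.3%, 39.2 to 49.4), against 36.6% in the whole list. Of the 259 replicate 2 peaks on V, 163 overlapped a replicate 1 peak (62.9%, 56.9 to 68.6), against 66.7% in the whole list. The odds of a partner for a replicate 1 peak were 1.46 times those on the other 5 chromosomes (1.15 to 1.84, Fisher's exact test, adjusted p = 0.0103) and 1.07 times those on the others without chromosome I (0.841 to 1.36, Fisher's exact test, adjusted p = 0.675). For replicate 2 peaks the odds ratio was 0.814 (0.609 to 1.09, Fisher's exact test, adjusted p = 0.218). Without chromosome I it was 0.937 (0.699 to 1.26, Fisher's exact test, adjusted p = 0.717). Much the same overlaps made up a smaller share of the replicate 1 list, which was the longer on V.

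Where both replicates called a peak on V, they placed it at nearly the same position. Over the 158 replicate 1 peaks with a partner, the midpoints lay a median of 46 bp apart, with an upper quartile of 101 bp and a largest distance of 588 bp. In 118 of the 158 pairs (74.7%) the distance was at most 100 bp, well inside the median widths of 472 bp in replicate 1 and 371 bp in replicate 2. Overlap was required for a pair, which limits how far apart midpoints can be. Distances in pairs on the other chromosomes are not given here, so closeness is not shown to be particular to V. The q values of the pairs were less alike, with a Spearman's rho of −log10 q of 0.43 and a Pearson's r of 0.53, given as a description over 158 pairs of 1 pair of lists. The rho of their widths was 0.67. Peaks without a partner had higher q, with a median −log10 q of 2.53 in replicate 1 and 2.56 in replicate 2, against 3.50 and 3.15 in the pairs.

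**Figure D3:**
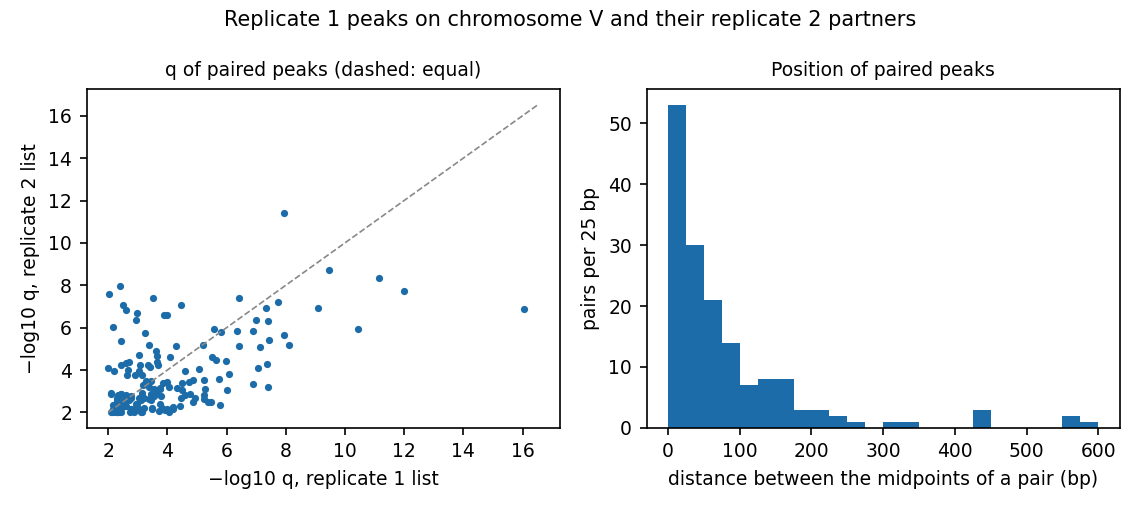
Left panel, −log10 q of each paired peak of chromosome V in replicate 1 (horizontal axis) and replicate 2 (vertical axis), with equal values dashed. Right panel, number of pairs (vertical axis) by the distance in bp between the midpoints of a pair (horizontal axis), of which 118 of 158 lie within 100 bp.

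On chromosome V the 10 peaks of lowest q were all found in both replicates. The combined q and the replicate calls may rest on the same reads, which builds in much of this. Over all chromosomes the lowest q of a peak found in replicate 1 only was 1.15e-25. The q value is the authors' own and depends on read depth, so it ranks peaks within a list and is no direct measure of binding. Of the 10, 7 lay in the centre, 2 in the left arm and 1 in the right arm, and 5 had another peak midpoint within 5000 bp. The lowest q belonged to the peak at V:6223755-6231280, which was 7526 bp wide and the widest of the chromosome. Its q was 3.61e-37 in the combined list, 9.20e-17 in replicate 1 and 1.58e-09 in replicate 2. Replicate 1 called it as 1 peak from 6224382 to 6231281, while replicate 2 divided it into 3. The second lowest, at V:10718574-10724862, was also broad, at 6289 bp, with q = 1.43e-23 in the combined list, 1.76e-08 in replicate 1 and 5.91e-08 in replicate 2. Each replicate divided it into 2 peaks.

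Other peaks of this group were narrow. The peak at V:8552517-8552905 was 389 bp wide, with q = 7.51e-23 in the combined list, 1.01e-12 in replicate 1 and 1.77e-08 in replicate 2. At V:13777882-13778275 the values were 3.45e-21, 7.16e-12 and 4.36e-09, over 394 bp. At V:14055011-14055421, in the right arm, they were 6.02e-21, 3.43e-10 and 1.99e-09, over 411 bp. In these 3 narrow peaks each replicate called a single peak with edges close to the combined ones, and the combined q was below that of either replicate. The peak at V:3677204-3677741, in the left arm, was the only one of the first 5 with a lower q in replicate 2 (4.00e-12) than in replicate 1 (1.16e-08), with 1.19e-21 in the combined list. The peak at V:9094023-9096366 was 2344 bp wide, with q = 2.84e-21, 3.51e-11 and 1.14e-06. The last 3 of the 10 began at bases 11535196, 11214553 and 13909397, and had combined q of 1.49e-16, 2.09e-16 and 5.58e-16.

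Across all 158 peaks found in both replicates, replicate 1 gave the lower q in 104 and replicate 2 in 54. The combined q was below both replicate values in all of them but 1. The same counts over the whole list are not given here, so neither is shown to be particular to V. Because q depends on read depth, which is unknown, q values compared between lists, here and below, are no measure of binding. Among the 100 peaks of lowest q in each whole list, chromosome V held 14 in the combined list, 10 in replicate 1 and 27 in replicate 2. It held 15.0%, 14.8% and 19.3% of the peaks of these lists.

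Peaks found in 1 replicate included broad ones on the replicate 2 side. The lowest q on V in the replicate 2 list, 1.37e-13 and rank 14 of the list, belonged to a peak of 2560 bp at V:1803942-1806501 that overlapped no replicate 1 peak. The combined list has it at V:1803991-1806238 with the higher q of 1.05e-09. The next of this kind, at V:14685592-14688873 and 3282 bp wide, had q = 6.69e-11 in replicate 2 and 7.82e-06 in the combined list. In both, replicate 2 alone gave a lower q than the combined list, the reverse of nearly all peaks found in both. Of the 87 peaks found in replicate 2 only, 11 were at least 1000 bp wide, and in 5 of these 11 the replicate 2 q was the lower. Of the 188 found in replicate 1 only, 10 were that wide and in 0 of them was the replicate 1 q the lower, which allows a share of up to 30% when 3 peaks are taken as the limit of a count of 0. Among narrower peaks it was lower in 6 of 76 on the replicate 2 side and 13 of 178 on the replicate 1 side. Over the whole combined list, 39 of 410 peaks found in replicate 2 only were that wide (9.51%, against 12.6% on V), and the replicate 2 q was the lower in 17 of the 39 (43.6%). For replicate 1 only the wide peaks were 84 of 1454 (5.78%, against 5.32% on V), with the lower q in 3. The pattern on V was thus near that of the whole list. The broad peaks were singled out after their values were seen and their difference was not tested.

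The lowest combined q among peaks found in replicate 2 only was 8.27e-10, at V:10951395-10952562, where replicate 2 had q = 3.92e-07. Among those found in replicate 1 only it was 8.14e-10, at V:7625-9410, the leftmost peak of the chromosome, where replicate 1 had q = 2.79e-05. Among those found in neither it was 1.97e-05, at V:20474035-20474834, rank 209 of the 703.

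Peaks on chromosome V were close together in some places and far apart in others. The distance between neighbouring midpoints had a median of 11639 bp (95% interval 10236 to 13514), and its quartiles were 3132 and 36560 bp. The upper quartile was above those of II, III, IV and X, which lay between 26342 and 30693 bp, while the median lay between those of X (10937 bp) and III (12289 bp). On V, 374 of 703 peaks (53.2%, 49.5 to 56.9) had another midpoint within 5000 bp, against 55.8% of all combined peaks. The odds ratio against the other 5 chromosomes was 0.886 (0.752 to 1.04, Fisher's exact test, adjusted p = 0.218), and without chromosome I it was 1.01 (0.856 to 1.20). Within 10000 bp the share on V was 68.7% and the odds ratio 0.793 (0.664 to 0.948, Fisher's exact test, adjusted p = 0.0268). The ratio within 10000 bp was not computed without chromosome I. Single chromosomes other than I had shares within 5000 bp from 49.0% on III to 54.6% on X, with V between them. Chromosome V has fewer peaks per Mb than the others, and the part of this density in its shares was not tested.

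**Figure D4:**
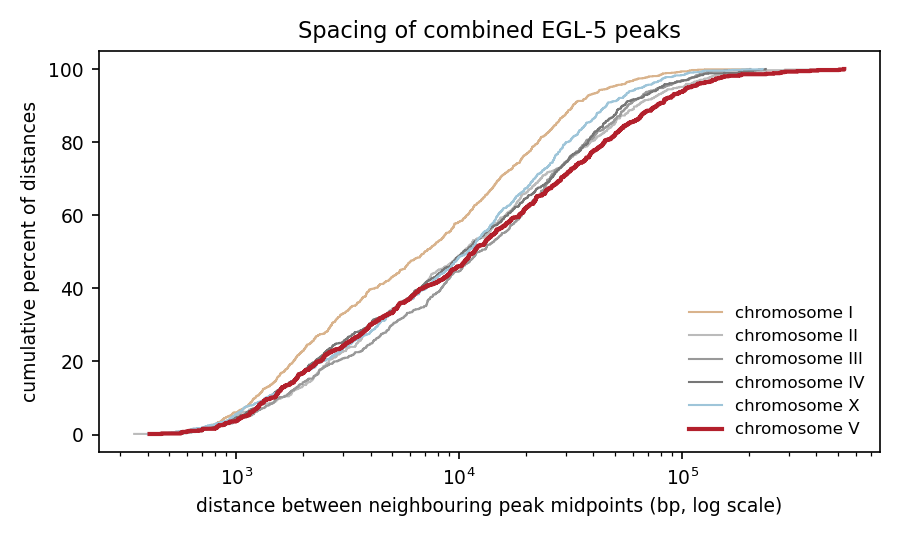
Cumulative percent (vertical axis) of the distances between neighbouring midpoints of combined peaks in bp (horizontal axis, log scale), with a line for each chromosome. Chromosome V runs with II, III, IV and X at short distances and below them at long distances, with an upper quartile of 36560 bp.

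The stretches between peaks were long on V. It had 44 stretches of more than 100 kb without a combined peak, 7.84 Mb in all or 37.5% of its span. The next chromosome by this measure was II with 30 stretches and 30.7% of its span, and the lowest was I with 7 and 5.82%. The part of the lower density of peaks on V in this ranking was not tested. The longest on V ran from 17005751 to 17538258, or 532.5 kb, inside the poor part of the right arm. The other two longest lay in the left arm, from 2133938 to 2638551 (504.6 kb) and from 2803667 to 3209234 (405.6 kb). None of these 3 held a peak of either replicate list. Of the 44 stretches, 16 lay in the left arm, 14 in the centre and 14 in the right arm. Their lengths were less alike than these counts. The longest in the centre lay between the peaks starting at 7995282 and 8178922, whose midpoints were 1.84e+05 bp apart.

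Neighbouring peaks with midpoints at most 5000 bp apart were joined into runs. The 703 peaks made 470 runs, of which 329 were single peaks, 83 were pairs, 40 had 3 members, 9 had 4 and 9 had 5 or more. Of the 70 runs of 5 or more in the whole list, 9 with 52 peaks were on V, which is 7.40% of its peaks against 8.68% over all chromosomes. Members of runs of 5 or more were found in both replicates in 12 of 52 cases (23.1%, 13.7 to 36.1), and single peaks in 77 of 329 (23.4%, 19.2 to 28.3). The intervals of these shares overlap, and the difference was not tested.

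The runs with most members differed in support. The run from 11204454 to 11215081 had 7 peaks in 10.6 kb, of which 6 were found in both replicates and 1 in replicate 2 only. Their q ran from 2.09e-16, at its right edge, to 6.87e-05, and their widths from 193 to 745 bp. The run from 9053705 to 9067092 also had 7 peaks, in 13.4 kb, of which replicate 1 alone had 3, replicate 2 alone 1, neither 3 and both together 0. Its lowest q was 1.93e-05 and its peaks were 176 to 392 bp wide. Both runs lay in the centre and had the same number of peaks. Next came 3 runs of 6 peaks each. The one of lowest q, from 5843416 to 5850992, had its 6 peaks in 7.58 kb, with the peak of lowest q, 1.25e-14, at its left edge and found in both replicates. The q of its other 5 peaks ran from 6.26e-06 to 0.00735, 3 of them found in replicate 1 only and 2 in neither. In the run from 14800084 to 14810628, 3 of the 6 peaks were found in both replicates, and in that from 8658534 to 8669144, 0 were.

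The median width on V was 395 bp with quartiles of 293 and 569 bp, against a median of 386 bp over all combined peaks. Widths differed little along the chromosome, with medians of 390 bp in the left arm and 396 bp in the centre and in the right arm. The peaks covered 365 kb, or 1.75% of the span. The 45 peaks of at least 1000 bp made up 24.9% of this covered length. Both replicates had 22 of these 45, replicate 1 alone 10, replicate 2 alone 11 and neither 2. Over all chromosomes 309 peaks were this wide, and the counts in the same order were 147, 84, 39 and 39. Peaks found in replicate 2 only thus made up more of the wide peaks on V, and those found in neither made up less. This difference was not tested. At the other end 16 peaks were under 50 bp, down to 1 bp, and all 16 were found in neither replicate. Over all combined peaks, 6.59% were at least 1000 bp wide, against 6.40% on V, and 117 of the 126 under 50 bp were found in neither. The widths on V were thus near those of the whole list.

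The widest peaks after the first 2 named above were at V:723802-728358 (4557 bp), V:13786989-13790969 (3981 bp) and V:15566143-15570019 (3877 bp). The first of these 3 was found in replicate 2 only, as 2 peaks with a lowest q of 1.20e-07 against 2.70e-07 in the combined list. The second had q = 1.13e-11 in the combined list, 1.26e-04 in replicate 1 and 2.64e-07 in replicate 2. The last had q = 2.93e-13, 5.57e-04 and 1.85e-06, with 1 replicate 1 peak covering part of it and 3 replicate 2 peaks. In all 3 replicate 2 gave the lower q or the only call.

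Width and q moved with support. The median width was 528 bp in peaks found in both replicates, 402 bp in replicate 1 only, 424 bp in replicate 2 only and 315 bp in neither. The median −log10 q was 7.38, 3.75, 3.99 and 2.46 in the same order. Split by q into 4 classes of nearly equal size, the class of lowest q (up to 8.08e-06) had 176 peaks, of which 135 were found in both replicates (76.7%, 69.9 to 82.3) and 0 in neither, which allows a share of up to 1.70%. In the class of highest q (from 0.00315 to 0.00990), 0 of 176 were found in both, with the same limit of 1.70%, and 153 in neither (86.9%, 81.2 to 91.1). The combined q and the replicate calls may rest on the same reads, which builds in much of this order, and it was not tested. Over the whole chromosome the median −log10 q was 3.43, against 3.42 in the whole list. By part it was 3.47 in the left arm, 3.25 in the centre and 3.67 in the right arm, and these differences were not tested.

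**Figure D5:**
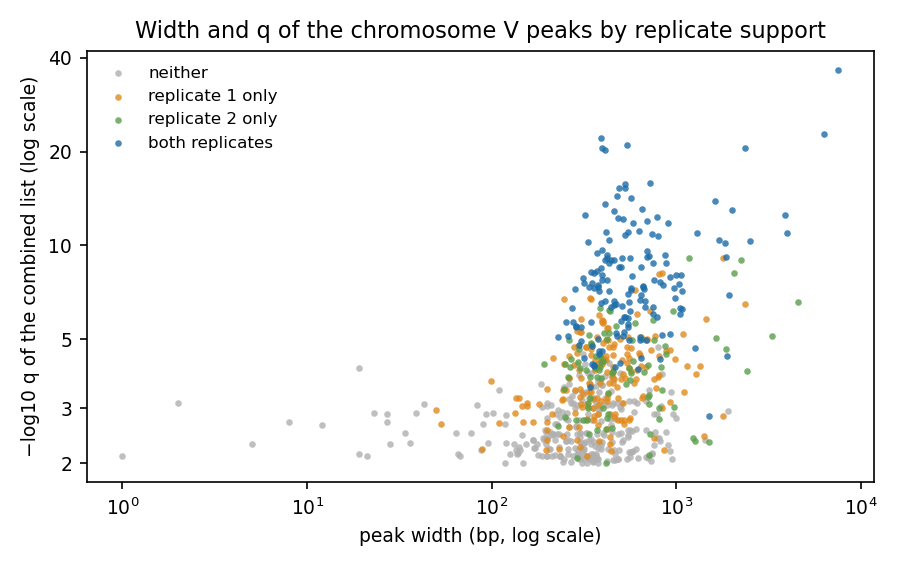
−log10 q in the combined list (vertical axis, log scale) against peak width in bp (horizontal axis, log scale) for the 703 peaks of chromosome V, coloured by replicate support. Peaks found in both replicates lie high, with a median of 7.38, and the 16 peaks under 50 bp at the left were all found in neither.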

How the data were processed

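ChIP DNA and input DNA of L3 worms were sequenced. Per the file headers, the deposited lists hold PeakSeq binding sites on WormBase WS190, each with a q-value (a p-value corrected for multiple tests) that the authors' caller gave it. The highest q is under 0.01. The aligner, threshold, inputs used and pooling of libraries are not stated in the sources used, so the libraries' depth and its effect on the calls are unknown.

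All peaks were kept. Overlaps and tests were computed in Python 3.11.15 with SciPy 1.17.1, pandas 2.3.3 and NumPy 2.4.6. Overlap meant at least 1 bp. Differences in counts were tested with two-sided Fisher's exact or exact binomial tests, adjusted over 8 tests, with a threshold of 0.05. The p-value of an alternative was adjusted with the other tests at their main values. Adjusted p-values of alternatives therefore make no allowance for how many alternatives were tried. Peaks were the unit and are clustered, so p-values can be too small and describe these lists, not worms. The tests were tried on simulated peaks whose support was drawn independently, so this is no check of p-values for clustered peaks.

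The members, lists and tests were chosen with earlier results of these data known. Regions named in the text are the 10 of lowest q found in both replicates, the lowest q of each other class, the 5 widest, the 3 runs with most peaks (2 more that tied with the last are given too), the 3 longest empty stretches and the 3 densest and 3 sparsest bins. Others are said to be chosen later. Alternatives changed the overlap, list, arm limits, bins, distances and chromosomes compared.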

Additional observations from a re-analysis of the deposited data

How the results depend on the processing

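Of 100 results under an alternative, 73 changed neither direction nor call, or stayed within the interval of the main value. The higher odds of being found in both replicates on V no longer passed Fisher's exact test without chromosome I (1.09), with runs counted once (1.31) or with the 50% of each list of lowest q (1.33, adjusted p = 0.149). The odds of a partner for replicate 1 peaks no longer passed without chromosome I (1.07) or in the 50% of lowest q (1.50, Fisher's exact test, adjusted p = 0.0649). The odds of a central position passed with a central 50% (1.38), which placed 16.9%, 69.7% and 13.4% of peaks in the left, central and right parts. The odds with a central 50% were not computed without chromosome I. Odds of a neighbour passed within 10000 bp (0.793). Within 5000 bp they turned from 0.886 to 1.01 without chromosome I, and the odds within 10000 bp were not computed without it. None of the results that turned direction passed a test: left over right was 0.955 among peaks found in both, and the odds of being found in both in the centre were 1.16 in the 50% of lowest q. With single replicate lists, left over right ran from 0.957 to 1.09, the odds of a neighbour from 0.852 to 1.28, the share with a neighbour from 35.3% to 35.5% and the median distance from 26932 to 40008 bp. The share with a neighbour was 17.7% among peaks found in both, 33.6% in the 50% of lowest q, 29.7% within 2000 bp and 68.7% within 10000 bp. The median distance was 73469 bp among peaks found in both and 29677 bp in the 50% of lowest q, as fewer peaks lie further apart. The median width was 528 bp and 459 bp in these lists. The cause of the other changes was not tested. No paired analysis was possible because the lists give no values per library. Without read counts, peaks of high q cannot be told from those missed for depth.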

Other observations

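A few replicate peaks on chromosome V were left out of the combined list. Of the 357 replicate 1 peaks, 346 overlapped a combined peak (96.9%, 95% Wilson interval 94.6 to 98.3), and of the 259 replicate 2 peaks, 254 did (98.1%, 95.6 to 99.2). The shares over the whole lists were 97.1% and 98.0%, so chromosome V was at the general level. The 11 replicate 1 peaks left out had q from 0.00244 to 0.00998, and the 5 replicate 2 peaks from 0.00186 to 0.00771. None of them overlapped a peak of the other replicate. The widest, at V:5840614-5842994 and 2381 bp wide, was a replicate 2 peak that ended just before the leftmost peak of the run of 6 at 5843416 to 5850992, in which no peak was found in replicate 2 only.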
